A study of Macaca mulatta with 10 samples.

Results

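Adipose tissue of 1 hyperinsulinemic rhesus monkey was compared with adipose tissue of 4 control monkeys, by RNA-Seq. The 5 libraries were chosen as all those labelled fat among the 10 libraries of the series, and the other 5 are skeletal muscle of the same animals. The hyperinsulinemic monkey is the animal labelled as the case, with an insulin level called extremely high, and per the study it carries a heterozygous nonsense mutation of *PRKD2* and was more obese than the other monkeys. The other 4 animals are labelled control and are called control 1 to control 4 here, in the order of their deposit. All 5 are male, and no source used here gives the fat depot or the ages. The hyperinsulinemic side has 1 library, so that its insulin level, mutation and obesity cannot be told apart from one another or from the individual animal. Of 28595 Ensembl macaque genes, 11981 had a mean of at least 1 RPKM over the 5 libraries and were tested. RPKM is the read count scaled by transcript length and by the mapped total of each library.

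White adipose tissue stores fatty acids as triglyceride and releases them by lipolysis. Insulin promotes the storage through glucose uptake, fatty acid synthesis and lipoprotein lipase, and restrains the release through phosphodiesterase 3B. Besides adipocytes the tissue holds vessels, fibroblasts with their collagen and proteoglycan matrix, and immune cells, of which macrophages are the most studied in obesity. In bulk libraries such as these, fewer cells of a type and less RNA per cell cannot be told apart.

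The libraries held 30669915 to 39379286 mapped reads in the controls and 41780234 in the hyperinsulinemic monkey. Reads counted in genes were 48.2% to 59.4% of them in the controls and 61.4% in the hyperinsulinemic monkey. Adipocyte genes were abundant in all 5, for example 631 to 1491 RPKM of *ADIPOQ* in the controls and 726 RPKM in the hyperinsulinemic monkey, whereas the gene model of *FABP4*, a common adipocyte marker, had only 0.254 to 3.44 RPKM. Skeletal muscle genes were uneven among the controls. *ACTA1*, the actin of skeletal muscle, was at 101 RPKM in control 1 and 80.9 RPKM in control 3, at 1.18 RPKM in control 2 and 0.444 RPKM in control 4, and at 1.72 RPKM in the hyperinsulinemic monkey.

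The first question was which genes differ in the adipose tissue of the hyperinsulinemic monkey. edgeR's quasi-likelihood test called 0 of 11981 genes (0%) at an adjusted p under 0.05, with a smallest adjusted p of 0.9999. At an unadjusted p under 0.05 there were 286 of the 11981 genes, 136 of them higher and 150 lower in the hyperinsulinemic monkey. This is under the share of 0.05 that chance alone would give. DESeq2 called 11 genes (0.0918%), of which 1 was higher and 10 were lower. Without control 1 edgeR called 6 genes, *ADH1B* among them, and without controls 1 and 3 it called 33. Both tests assume that the lone animal varies as the controls do. For a single gene an exact permutation test of 1 animal against 4 cannot give a two-sided p below 0.2. The genes are therefore ranked by their distance from the nearest control where the value of the hyperinsulinemic monkey fell outside those of all 4, on the log2 scale of CPM after TMM scaling, and this distance is called the gap.

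The hyperinsulinemic monkey lay above all 4 controls in 1884 genes (15.7%) and below all 4 in 1713 genes (14.3%). If the 5 libraries did not differ, each would on average be the highest in a share of 0.2 of the genes and the lowest in 0.2. Neither count exceeds that share, so that the counts alone show no difference. The gap was at least 0.5 in 357 genes above and 349 below, at least 1 in 68 and 111, and at least 2 in 8 and 12. Of the genes outside the range, 52.4% were above it. With scaling to the mapped totals in place of TMM, 3345 genes were above and 938 below, so that 78.1% of those outside were above, and the median log2 difference of all genes moved from -0.06 to 0.13. The control nearest to the hyperinsulinemic monkey was most often control 1, which was the highest control for 36.5% of the genes above and the lowest for 38.4% of the genes below.

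**Figure D1:**
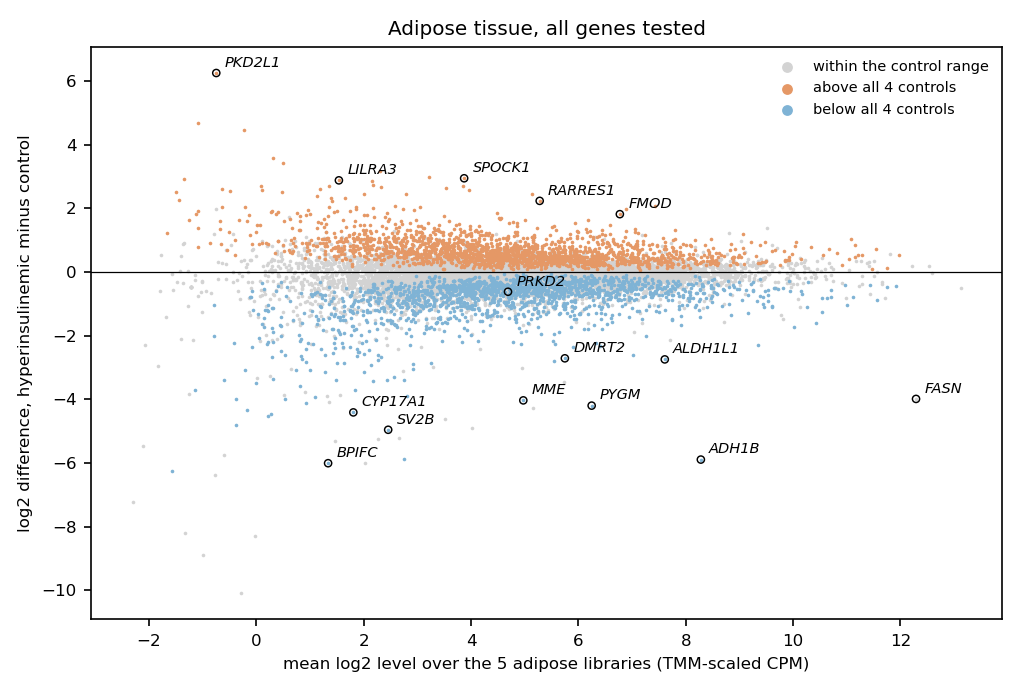
Log2 difference between the hyperinsulinemic monkey and the 4 controls (vertical axis, edgeR) against the mean log2 level over the 5 adipose libraries (horizontal axis), 1 point for each of 11981 genes tested. Orange points lie above all 4 controls (1884 genes) and blue points below all 4 (1713 genes), and some genes named in the text are circled. *FASN*, at -3.99, is among the most abundant genes and lies within the control range.

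*SPOCK1*, *RARRES1* and *ADH1B* were given as leading genes of this comparison. They were chosen with earlier results of these same data known, so that their values and adjusted p are no independent test. *SPOCK1* encodes testican-1, a secreted proteoglycan of the extracellular matrix. It was at 2.08, 0.618, 0.659 and 1.73 RPKM in the controls (control 1 to control 4, the order used throughout) and at 11.0 RPKM in the hyperinsulinemic monkey. Every control was thus far below the hyperinsulinemic monkey, and the gap to the nearest was 2.31. The log2 difference was 2.95 (standard error 0.564), and *SPOCK1* was the 1 higher gene that DESeq2 called (adjusted p 0.0223 from DESeq2). The log2 difference was 2.46 to 3.24 over the 12 alternatives that gave a value.

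*RARRES1*, a membrane protein gene named for its response to retinoic acid receptor ligands, was at 49.6, 28.6, 27.5 and 17.0 RPKM in the controls and 164 RPKM in the hyperinsulinemic monkey. The groups did not overlap, with a gap of 1.65. The log2 difference of 2.24 (standard error 0.472) passed neither test (adjusted p 0.0785 from DESeq2).

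*ADH1B*, a class I alcohol dehydrogenase that oxidizes ethanol and retinol, was at 39.1, 231, 156 and 393 RPKM in the controls and at 3.98 RPKM in the hyperinsulinemic monkey. The controls themselves spread widely, and the lowest, control 1, was still well above the hyperinsulinemic monkey, with a gap of 3.37. The log2 difference was -5.89 (standard error 1.33), with an adjusted p of 9.35e-09 from DESeq2. It was -6.49 to -4.96 over 13 alternatives and was called in 3 of them. It rests on 390 reads in the hyperinsulinemic monkey and 2984 to 36363 reads in the controls.

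*SPOCK1* (ENSMMUG00000001344) occupies bases 133394836 to 133907558 of chromosome 6, minus strand. *RARRES1* (ENSMMUG00000014825) occupies bases 128972856 to 128996700 of chromosome 2, plus strand, and *ADH1B* (ENSMMUG00000018738) bases 92267680 to 92309261 of chromosome 5, minus strand. Neither the labels nor the methods name the build behind these coordinates. In muscle of the same animals all 3 were low. *SPOCK1* was at 0.260 to 0.853 RPKM in control muscle and 0.551 RPKM in that of the hyperinsulinemic monkey, *RARRES1* at 0 to 1.05 RPKM and listed at 0, and *ADH1B* at 0.138 to 5.58 RPKM and 0.376 RPKM.

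*SPOCK1* and *RARRES1* were among the 15 named genes farthest above the control range. The widest gap was that of *PKD2L1*, which encodes a calcium-permeable cation channel of the polycystin family. It was at 0, 0.293, 0.0212 and 0 RPKM in the controls and 6.86 RPKM in the hyperinsulinemic monkey. In reads this was 0, 22, 2 and 0 against 702, so that the controls were near 0, and control 2 held most of their reads. The log2 difference was 6.26 (standard error 1.37) and the gap 4.20, but DESeq2 did not call it. It occupies bases 99890332 to 99933826 of chromosome 9, minus strand, and had 0.0361 RPKM in the muscle of the hyperinsulinemic monkey.

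*LILRA3*, a soluble receptor of the leukocyte immunoglobulin-like family, was at 0.546, 0.329, 0.523 and 0.585 RPKM in the controls, which were close to each other, and at 4.19 RPKM in the hyperinsulinemic monkey. *CAMP*, the precursor of the antimicrobial peptide cathelicidin, was at 2.31, 0, 0.998 and 0.529 RPKM against 12.8 RPKM. *CD8B*, a chain of the CD8 co-receptor of cytotoxic T cells, was at 0.292, 0.795, 0.633 and 0.310 RPKM against 3.86 RPKM. In each of these genes the hyperinsulinemic monkey stood alone above 4 controls near or below 1 RPKM, apart from *CAMP* in control 1. Their control means were under 1 RPKM, so that they passed the filter on the mean of all 5 libraries only through the hyperinsulinemic monkey. Low controls beside a lone high value were thus fixed in part by the filter. The same holds for *PKD2L1*, *AOAH*, *SCIN* and *RRM2*. *AOAH*, an enzyme that detoxifies bacterial lipopolysaccharide, had 2.92 RPKM in the hyperinsulinemic monkey and at most 0.784 RPKM in a control. The chemokine genes *CXCL1* and *PF4V1* were at 4.99 and 10.8 RPKM in the hyperinsulinemic monkey, and at most at 1.38 and 2.38 RPKM in a control. *LILRA3*, *CXCL1* and *PF4V1* have close paralogs, between which the authors' counting could split reads.

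*VAT1L* was at 2.94, 0.966, 2.02 and 0.711 RPKM in the controls and 12.2 RPKM in the hyperinsulinemic monkey. *HAL*, histidine ammonia-lyase, which starts the breakdown of histidine, was at 0.962, 3.35, 1.85 and 1.09 RPKM against 13.3 RPKM. *SCIN*, an actin-severing protein, was at 1.34, 0.310, 0.942 and 0.376 RPKM against 5.43 RPKM. *OLFM2*, a secreted glycoprotein, was at 2.18, 1.60, 1.06 and 0.774 RPKM against 8.70 RPKM, and *RRM2*, a subunit of ribonucleotide reductase, was at 0.276 to 0.802 RPKM against 3.02 RPKM. Which control came nearest varied among them: control 1 for *VAT1L*, *SCIN* and *OLFM2*, control 2 for *HAL* and control 3 for *RRM2*. *SNORA18*, also among the 15, is a short RNA of 132 bases inside *TAF1D* on the same strand, and its 63 reads may in part be reads of that host gene.

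**Figure D2:**
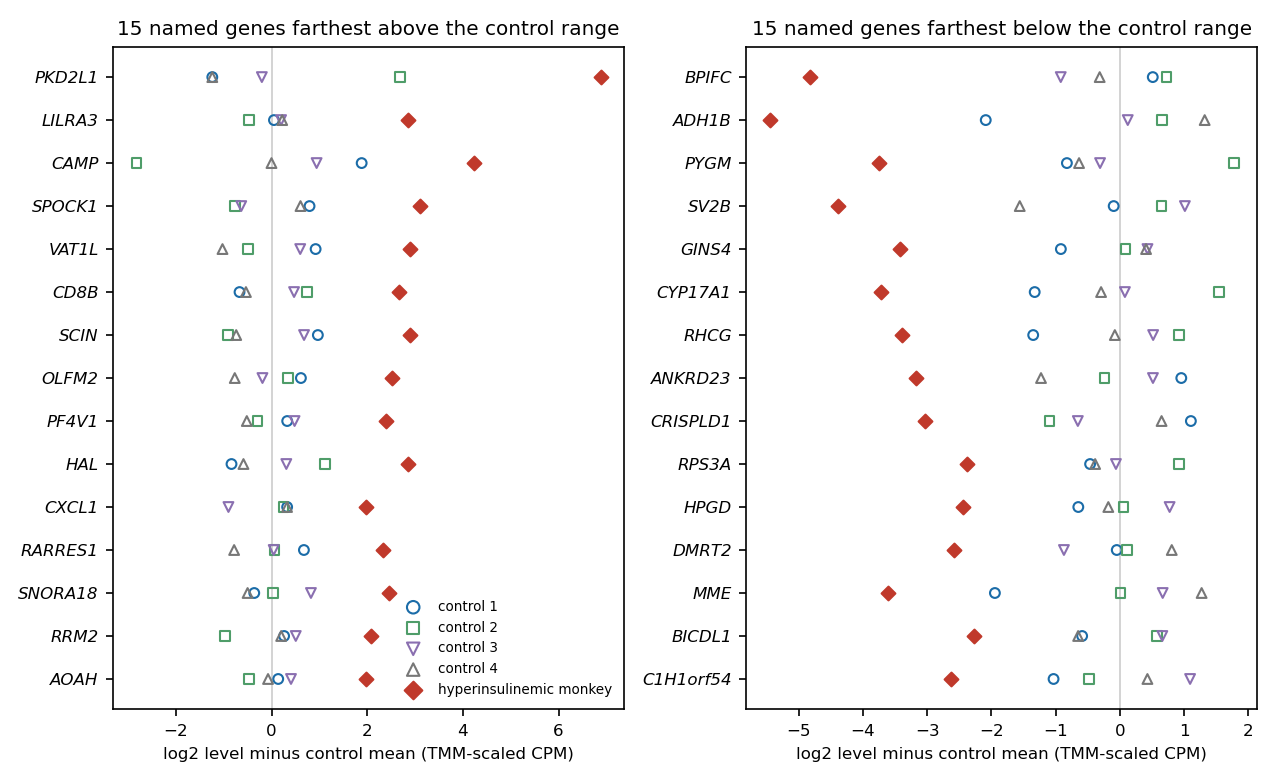
Log2 level of each adipose library minus the mean of the 4 controls (horizontal axis, TMM-scaled CPM) for the 15 named genes farthest above (left) and below (right) the control range, ordered by gap. Open symbols are the 4 controls and red diamonds the hyperinsulinemic monkey, whose gap is 4.20 for *PKD2L1* and 3.90 for *BPIFC*.

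*ADH1B* was among the 15 named genes farthest below the control range. *CYP17A1*, the steroid 17-alpha-hydroxylase, was at 0.767, 5.14, 1.79 and 1.52 RPKM in the controls and 0.125 RPKM in the hyperinsulinemic monkey (log2 difference -4.41, standard error 1.35, adjusted p 0.0445 from DESeq2). *HPGD*, which inactivates prostaglandins, was at 0.888, 1.29, 2.07 and 1.17 RPKM against 0.256 RPKM. *MME*, the peptidase neprilysin, was at 2.74, 9.46, 14.5 and 24.3 RPKM against 0.901 RPKM (log2 difference -4.03, standard error 1.14, adjusted p 0.00346 from DESeq2). In *MME* and *CYP17A1*, as in *ADH1B*, the lowest control was control 1.

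*BPIFC*, of a family of lipid-binding proteins, had the widest gap below, 3.90. It was at 2.19, 2.25, 0.681 and 1.16 RPKM in the controls. The hyperinsulinemic monkey had 2 reads of it, a ratio of 0.0149 to the controls after TMM scaling (95% interval 0.0018 to 0.0542, counting error only). *SV2B*, a synaptic vesicle glycoprotein, was at 1.09, 1.61, 2.02 and 0.366 RPKM in the controls and 0.0472 RPKM in the hyperinsulinemic monkey, from 73 to 395 reads and 10 reads. *DMRT2*, a DM-domain transcription factor, was at 18.1, 18.0, 8.80 and 31.0 RPKM against 3.28 RPKM. DESeq2 called all 3 (adjusted p 0.00907, 0.00127 and 0.0164 from DESeq2).

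*PYGM*, muscle glycogen phosphorylase, was at 14.8, 79.4, 18.2 and 16.0 RPKM in the controls and 2.05 RPKM in the hyperinsulinemic monkey (log2 difference -4.20, standard error 1.2, adjusted p 0.00162 from DESeq2). It was highest in control 2, whose *ACTA1* was low, and the order of the controls was thus not that of the muscle actin. The part of muscle tissue in this difference was not tested. *ANKRD23*, another gene of muscle, was at 4.02, 1.51, 2.52 and 0.770 RPKM against 0.153 RPKM, from 4 reads in the hyperinsulinemic monkey.

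*RHCG*, an ammonium transporter, was at 0.444 to 2.02 RPKM in the controls and 0.0822 RPKM in the hyperinsulinemic monkey, and *CRISPLD1*, a secreted protein, at 0.822 to 4.34 RPKM and 0.241 RPKM. *GINS4*, of the replication complex GINS, had 17 to 52 reads in the controls and 2 in the hyperinsulinemic monkey, a ratio of 0.0404 after TMM scaling (95% interval 0.00485 to 0.149, counting error only). *BICDL1*, an adaptor of dynein transport, was at 1.39 to 3.18 RPKM and 0.473 RPKM, and *C1H1orf54* at 1.16 to 4.75 RPKM and 0.300 RPKM. The gene listed as *RPS3A* spans only 231 transcript bases, and its 10 to 74 reads may come from other copies of this ribosomal protein gene.

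DESeq2 called 3 further genes, all lower in the hyperinsulinemic monkey. *ALDH1L1*, 10-formyltetrahydrofolate dehydrogenase of the folate cycle, was at 25.2, 84.6, 41.1 and 59.9 RPKM in the controls and 9.12 RPKM in the hyperinsulinemic monkey (log2 difference -2.74, standard error 0.754, adjusted p 0.0167 from DESeq2). ENSMMUG00000003873, a gene without a symbol on chromosome 14 from 1645072 to 1660304, was at 10.1, 22.2, 17.2 and 14.0 RPKM against 2.64 RPKM. ENSMMUG00000017490 was at 57.2, 97.8, 69.3 and 51.9 RPKM against 17.1 RPKM. The latter overlaps *RASSF4* on the opposite strand, and no source used here says whether the counting used the strand.

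Genes of fat synthesis and storage are described next as lists, with the count of members outside the control range and the median log2 difference. Over all genes 15.7% lay above the range and 14.3% below, and the median was -0.06. Of 15 genes of fatty acid synthesis and desaturation tested, 3 lay below all 4 controls and 0 above, a count near that share of all genes, and the median was -1.12. *FASN*, fatty acid synthase, was at 57.9, 2142, 691 and 801 RPKM in the controls and 68.7 RPKM in the hyperinsulinemic monkey. Control 1 and the hyperinsulinemic monkey were thus both low, far from the other three controls, and the log2 difference of -3.99 (standard error 1.64) did not pass. Malic enzyme *ME1*, a source of NADPH, was below the controls, though close to control 1, with 11.8, 44.3, 39.9 and 64.0 RPKM against 11.5 RPKM, and *ACACB*, an acetyl-CoA carboxylase, was at 98.9, 286, 136 and 225 RPKM against 71.0 RPKM. Without control 2 the median of the list was -0.62.

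Of 12 genes of triglyceride assembly and glyceroneogenesis, 6 lay below and 0 above, with a median of -0.83. *GPD1*, which makes the glycerol 3-phosphate backbone, was at 466, 1292, 509 and 773 RPKM in the controls and 263 RPKM in the hyperinsulinemic monkey (log2 difference -1.74, standard error 0.696). *LPIN2*, a phosphatidate phosphatase, was at 15.7, 9.80, 10.6 and 26.1 RPKM against 7.51 RPKM. *DGAT1*, which adds the last fatty acid, was at 23.0, 51.6, 29.5 and 36.7 RPKM against 17.8 RPKM, and overlaps *HSF1* on the opposite strand. All 3 were lowest in the hyperinsulinemic monkey, although for *LPIN2* and *DGAT1* the lowest control was close to it.

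Of 15 genes of lipolysis and the lipid droplet, 5 lay below and 0 above, with a median of -0.37. *PDE3B*, the phosphodiesterase through which insulin restrains lipolysis, was at 8.95, 15.4, 26.2 and 40.3 RPKM in the controls and 4.28 RPKM in the hyperinsulinemic monkey (log2 difference -2.61, standard error 0.841). *NPR1*, the receptor through which atrial natriuretic peptide stimulates lipolysis, was at 53.1, 100.2, 55.8 and 77.5 RPKM against 39.7 RPKM. Genes acting for and against lipolysis were thus both below the control range, and neither *PDE3B* nor *NPR1* was called by edgeR or DESeq2. Without control 3 the median of the list was -0.58, and without control 2 it was -0.29.

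Of 22 genes of insulin signaling and glucose uptake, 4 lay below, 2 above and 16 within the range. These counts are near the shares of all genes, 14.3% below and 15.7% above. The median was -0.36 (-0.20 without control 4). *SLC2A4*, the insulin-regulated glucose transporter GLUT4, was at 50.9, 139, 61.4 and 68.3 RPKM in the controls and 34.5 RPKM in the hyperinsulinemic monkey (log2 difference -1.43, standard error 0.656). The substrates of the insulin receptor were also lowest in the hyperinsulinemic monkey, *IRS2* with 3.80, 4.28, 2.03 and 3.38 RPKM against 1.55 RPKM, and *IRS1* with 7.70, 12.4, 8.46 and 16.5 RPKM against 7.03 RPKM, where control 1 was close to it. *INSR*, named after its values were seen, was within the range at 3.52 to 7.75 RPKM and 5.28 RPKM.

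Of 19 transcription factors and cofactors of adipogenesis, 11 lay below and 0 above, with a median of -0.55 (-0.34 without control 2). *MLXIPL*, the carbohydrate-responsive factor ChREBP, was at 7.61, 23.1, 13.8 and 16.0 RPKM in the controls and 6.91 RPKM in the hyperinsulinemic monkey. *KLF15* was at 7.55, 16.7, 8.77 and 12.5 RPKM against 6.08 RPKM. *PPARGC1A*, the mitochondrial coactivator PGC-1 alpha, was at 1.30, 0.554, 4.30 and 1.90 RPKM against 0.513 RPKM. The hyperinsulinemic monkey was the lowest of the 5 in each, with control 1 or control 2 just above it. The 13 adipokines tested had 1 gene above, 2 below and a median of -0.21 (0.21 without control 1). *ADIPOQ*, adiponectin, was at 867, 1491, 631 and 1477 RPKM against 726 RPKM, below the controls after TMM scaling and within their range in RPKM. *NRG4*, an adipose ligand of ErbB receptors, was at 4.70, 6.72, 7.20 and 6.97 RPKM against 2.54 RPKM (log2 difference -1.54, standard error 0.682).

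**Figure D3:**
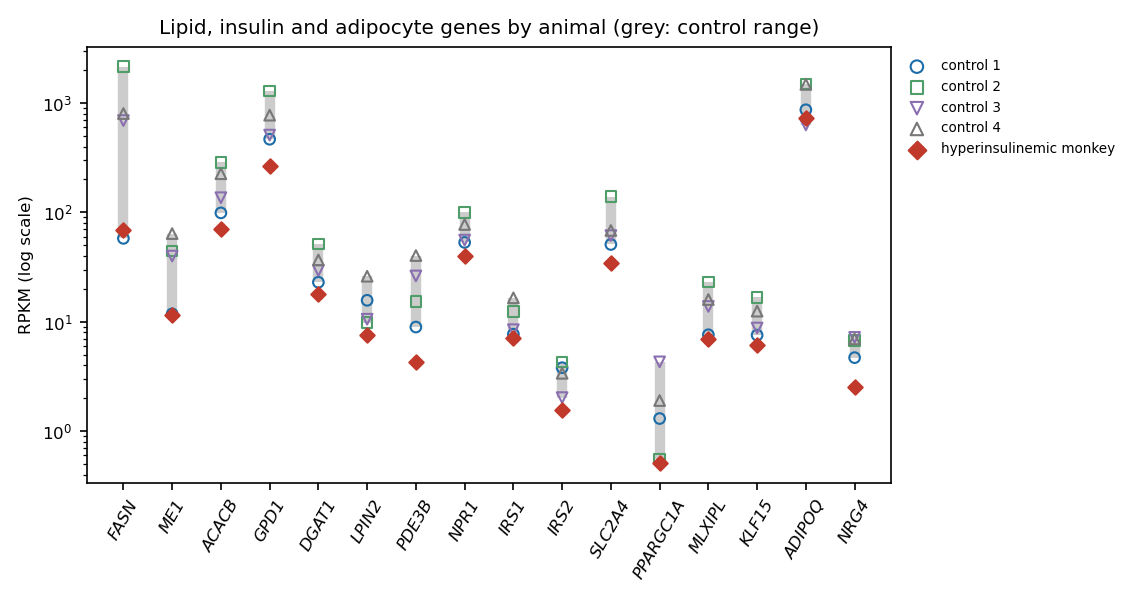
RPKM (vertical axis, log scale) of 16 genes of fat synthesis, lipolysis, insulin signaling and adipocyte identity in the 5 adipose libraries. Open symbols are the 4 controls, grey bars span their range and red diamonds are the hyperinsulinemic monkey, with 4.28 RPKM of *PDE3B* against 8.95 to 40.3 RPKM in the controls and 68.7 RPKM of *FASN*, near the 57.9 RPKM of control 1.

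Lists of mitochondrial genes had more members below the control range than above it. Of 32 subunits of oxidative phosphorylation, 15 lay below all 4 controls and 0 above, with a median of -0.53 (-0.33 without control 2). With scaling to the mapped totals 10 were below and 2 above. *UQCRH*, of complex III, was at 2.68, 5.66, 3.88 and 3.64 RPKM in the controls and 1.84 RPKM in the hyperinsulinemic monkey, and *COX4I1*, of complex IV, at 196, 335, 217 and 166 RPKM against 128 RPKM. Of 19 genes of fatty acid oxidation 8 lay below and 0 above (median -0.46), and of 22 genes of branched-chain amino acid breakdown 12 lay below and 0 above (median -0.63). *OXCT1*, the enzyme that uses ketone bodies, was at 15.3, 15.02, 22.4 and 24.6 RPKM against 7.48 RPKM (log2 difference -1.57, standard error 0.513). *PCCA*, of propionyl-CoA carboxylase, was at 14.5, 18.1, 23.0 and 25.0 RPKM against 8.45 RPKM (log2 difference -1.46, standard error 0.513). In both, the hyperinsulinemic monkey was apart from the 4 controls, below the lowest of them.

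Lists of macrophage, complement and chemokine genes had more members above the control range than below it, whereas most interferon-stimulated genes were within it. Of 15 lysosome and lipid-laden macrophage genes 10 lay above all 4 controls and 2 below (median 0.66). Of 14 complement genes 10 lay above and 0 below (median 0.77, and 0.585 without control 4). Of 11 chemokines and receptors 6 lay above and 0 below (median 0.71, 1.08 without control 1 and 0.55 without control 4). *LGALS3*, galectin-3, was at 64.8, 27.9, 33.0 and 18.4 RPKM in the controls and 94.8 RPKM in the hyperinsulinemic monkey (log2 difference 1.22, standard error 0.542). *TREM2*, a lipid-sensing receptor of macrophages, was at 11.1, 2.01, 2.63 and 0.245 RPKM against 18.5 RPKM, and *SPP1*, osteopontin, at 17.0, 2.79, 11.9 and 3.60 RPKM against 29.3 RPKM. In all 3 control 1 was the nearest to the hyperinsulinemic monkey.

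*C7*, a component of the membrane attack complex, was at 50.6, 21.4, 52.7 and 43.0 RPKM in the controls and 98.3 RPKM in the hyperinsulinemic monkey (log2 difference 1.04, standard error 0.486). *C1S*, a protease of the C1 complex, was at 119.5, 99.2, 86.0 and 62.1 RPKM against 179 RPKM, and shares part of its locus with ENSMMUG00000006471 on the same strand. *CXCL10*, an interferon-induced chemokine of T cells, was at 0.365, 0.387, 2.64 and 0.646 RPKM against 7.96 RPKM (log2 difference 2.72, standard error 0.958), and *CXCR4* at 8.58, 5.62, 11.0 and 4.39 RPKM against 15.8 RPKM. The 7 class II antigen presentation genes had 4 above and 0 below (median 0.40, 0.63 without control 3 and 0.355 without control 4). Among them *MAMU-DPA* was at 51.9, 30.0, 27.3 and 40.6 RPKM against 69.2 RPKM, with a gene on the opposite strand that overlaps it. Interferon-stimulated genes had 2 above and 1 below of 15 (median 0.15). That median was 0.03 without control 2, 0.49 without control 3 and 0.94 without controls 1 and 3.

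The lists of matrix genes had more members above the control range than below it. Of 14 fibroblast and stroma markers 8 lay above and 1 below, with a median of 0.28. Members such as *DCN*, *LUM* and *COL1A1* are in both this list and the matrix lists, so that the counts are not independent. The markers summed to 2258 to 4293 RPKM in the controls and 4357 RPKM in the hyperinsulinemic monkey. After TMM scaling their mean log2 level was 9.13 in the hyperinsulinemic monkey, under the 9.29 of control 1. The part of stroma cells in the matrix genes was not tested. Of 13 small proteoglycans and SPOCK genes 6 lay above and 1 below (median 0.46, and 0.26 without control 2). *FMOD*, fibromodulin, which binds collagen fibrils, was at 22.8, 18.3, 13.4 and 10.7 RPKM in the controls and 65.5 RPKM in the hyperinsulinemic monkey, a gap of 1.45 (log2 difference 1.82, standard error 0.424). *SPOCK3* went the other way from *SPOCK1*, with 17.1, 11.3, 9.55 and 10.7 RPKM against 5.70 RPKM (log2 difference -1.27, standard error 0.473). Neither was called by edgeR or DESeq2.

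Of 16 collagen chains 10 lay above and 0 below (median 0.43), with *COL1A1*, of type I collagen, at 313, 304, 185 and 210 RPKM in the controls and 475 RPKM in the hyperinsulinemic monkey. Of 19 matrix proteases and inhibitors 7 lay above and 1 below (median 0.48, 0.75 without control 1 and 0.35 without control 3). *PLAT*, tissue plasminogen activator, was at 20.6, 18.6, 16.3 and 11.9 RPKM against 42.8 RPKM (log2 difference 1.15, standard error 0.407), and *MMP15*, a membrane-type metalloproteinase, at 6.12, 8.08, 5.40 and 5.00 RPKM against 14.7 RPKM (log2 difference 1.05, standard error 0.414). *MMP9*, gelatinase B, was at 2.52, 0.141, 1.79 and 0.131 RPKM against 7.05 RPKM. The hyperinsulinemic monkey was above every control in all 4 genes.

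The 6 IGF axis genes had 3 above and 0 below (median 0.26, and 0.16 without control 4), with *IGFBP4* at 229.9, 206, 168 and 117 RPKM against 286 RPKM and *IGF1* within the range at 12.4 to 25.7 RPKM and 16.9 RPKM. Of 18 Wnt pathway genes 5 lay above and 2 below, against the 15.7% and 14.3% of all genes (median 0.11, and -0.08 without control 3). *WNT2B*, a Wnt ligand, was at 6.54, 8.10, 7.47 and 4.98 RPKM against 16.4 RPKM (log2 difference 1.07, standard error 0.467), and *WNT10B*, a ligand that restrains adipogenesis, at 2.60, 2.29, 1.83 and 1.67 RPKM against 1.23 RPKM. Of 22 TGF-beta and BMP genes 3 lay above and 3 below (median -0.04, and 0.13 without control 4), but with scaling to the mapped totals 9 lay above and 2 below (median 0.15). *ACVR1C*, the activin receptor ALK7 of adipocytes, was at 10.7, 10.2, 18.5 and 56.7 RPKM against 5.49 RPKM (log2 difference -2.32, standard error 0.986).

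**Figure D4:**
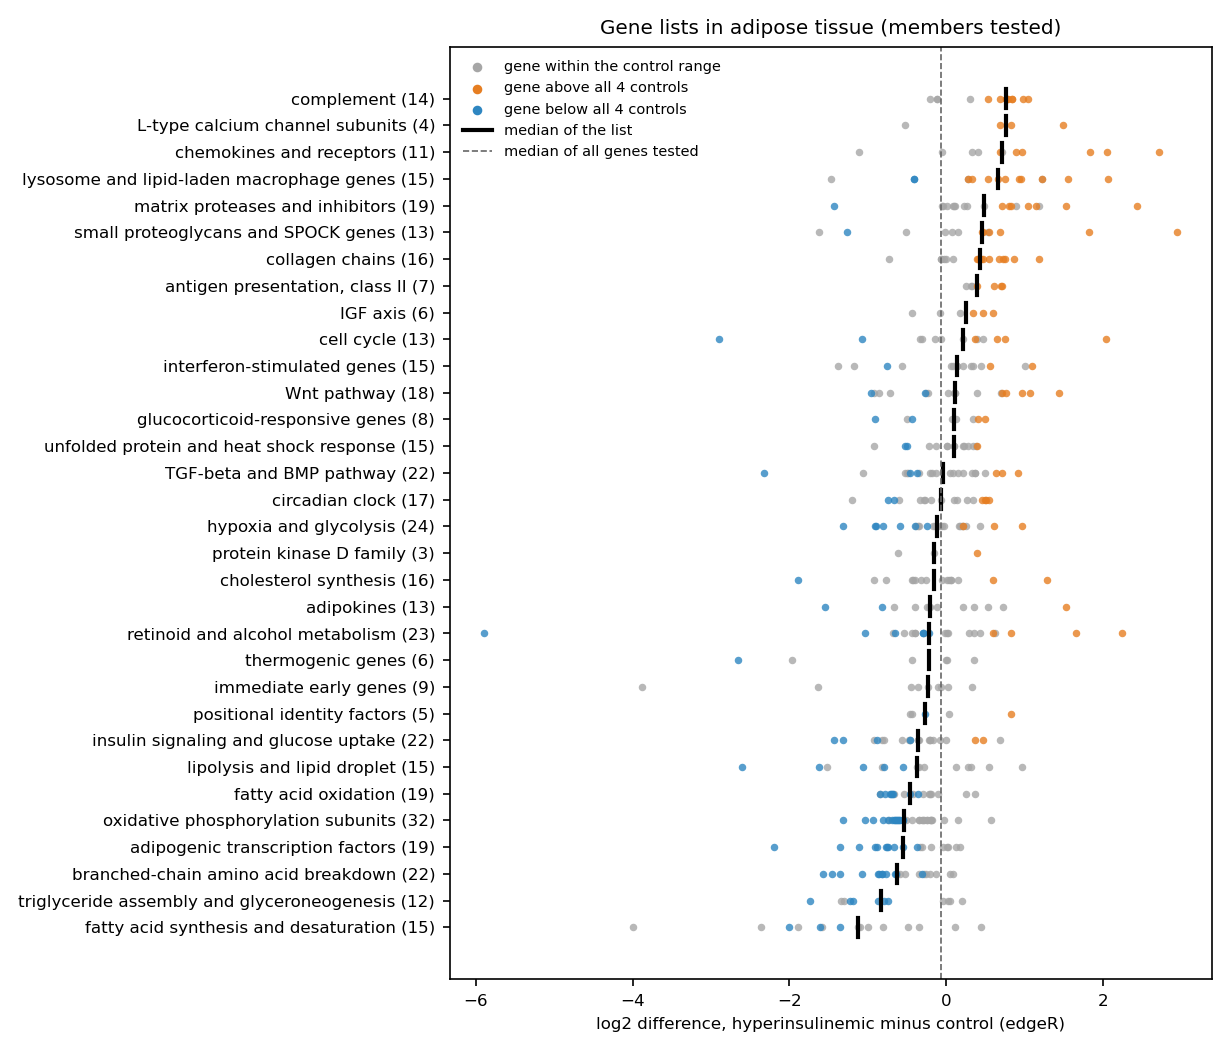
Log2 difference between the hyperinsulinemic monkey and the 4 controls (horizontal axis, edgeR) for the members of each gene list, with the number tested in parentheses. Points are genes, coloured by their place against the control range, black bars are list medians and the dashed line is the median of all genes. The medians run from -1.12 for fatty acid synthesis to 0.77 for complement.

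Retinoid and alcohol metabolism, the list that holds *ADH1B* and *RARRES1*, had 4 of 23 genes above and 6 below, with a median of -0.22 (-0.11 without control 1 and -0.13 without control 2). *ALDH1A3*, which makes retinoic acid, was at 45.7, 37.3, 37.7 and 34.0 RPKM in the controls and 78.6 RPKM in the hyperinsulinemic monkey (log2 difference 0.83, standard error 0.381), while *RETSAT*, retinol saturase, named after its values were seen, was at 347, 389, 416 and 477 RPKM against 228 RPKM. Members of this list stood on both sides of the control range, as did all genes, with 15.7% above and 14.3% below.

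For the other lists the counts are again to be read against 15.7% above and 14.3% below over all genes. The counts above and below were 3 and 7 of 24 for hypoxia and glycolysis (median -0.11), 2 and 1 of 16 for cholesterol synthesis (-0.16), 4 and 2 of 17 for the circadian clock (-0.07), 2 and 2 of 8 for glucocorticoid-responsive genes (0.10) and 1 and 2 of 15 for unfolded protein and heat shock genes (0.10). They were 0 and 1 of 6 for thermogenic genes (-0.22), 1 and 1 of 5 for positional identity factors (-0.27), 0 and 0 of 9 for immediate early genes (-0.23) and 4 and 2 of 13 for the cell cycle (0.22). The median turned positive with scaling to the mapped totals for hypoxia and glycolysis, cholesterol synthesis and the clock, where unfolded protein and heat shock genes had 5 above and 0 below. Leaving out a control also turned the sign of medians, to -0.13 for unfolded protein and heat shock genes without control 2, 0.20 for immediate early genes without control 1, 0.11 for thermogenic genes and -0.09 for glucocorticoid-responsive genes without control 3, and 0.15 for the clock without control 4. The median of the cell cycle list was 0.10 without control 4. *ADM*, adrenomedullin, was at 28.4, 34.2, 22.8 and 28.4 RPKM in the controls and 17.5 RPKM in the hyperinsulinemic monkey, and *TM7SF2*, a sterol reductase, at 16.4, 38.4, 11.1 and 19.0 RPKM against 6.62 RPKM. *UCP1*, the uncoupling protein of brown fat, was within the range, at 0.127 to 5.29 RPKM and 0.527 RPKM. Of 11 L-type calcium channel subunits found only 4 passed the filter (median 0.76). The 3 above the range were *CACNA2D1*, *CACNA2D4* and *CACNB3*, and the other was within it, at a log2 difference of -0.519. *CACNA2D1* was at 0.902, 0.442, 0.820 and 2.01 RPKM against 3.35 RPKM, from 6 to 35 reads in the controls and 62 in the hyperinsulinemic monkey.

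Markers of the cell types that the tissue could hold were summed in each library. The sums are in RPKM, scaled to the mapped totals, whereas the counts above and below are after TMM scaling. Scaling to the mapped totals placed more genes of the hyperinsulinemic monkey above the controls, 3345 against 1884 with TMM. For 12 macrophage markers the sum was 651, 433, 376 and 225 RPKM in the controls and 829 RPKM in the hyperinsulinemic monkey. Of the 12, 9 lay above all controls (median 0.75, and 0.60 without control 4). *F13A1*, a marker of resident macrophages, was at 42.3, 31.3, 27.1 and 26.1 RPKM against 67.1 RPKM (log2 difference 0.90, standard error 0.399), and *CSF1R*, the receptor on which macrophages depend, at 68.5, 50.2, 38.0 and 30.5 RPKM against 90.4 RPKM. T and NK cell markers summed to 26.1 to 54.4 RPKM and 83.2 RPKM, with 4 of 6 genes tested above (median 0.85, 1.28 without control 3 and 0.71 without control 4). Among them *CD3E* was at 3.32, 1.45, 3.60 and 0.876 RPKM against 7.50 RPKM, and *NKG7* at 1.205, 1.61, 1.77 and 0.642 RPKM against 4.87 RPKM. The macrophage and T cell sums were therefore highest in the hyperinsulinemic monkey, as were 10 of 15 lysosome and macrophage genes, 10 of 14 complement genes and 6 of 11 chemokine genes, and the part of cell numbers in those differences was not tested.

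Of 4 mast cell markers tested 3 lay below and 0 above (median -1.06), and their sum was 17.3 to 28.1 RPKM in the controls and 12.1 RPKM in the hyperinsulinemic monkey. *CMA1*, mast cell chymase, was at 5.39, 8.83, 4.58 and 2.80 RPKM against 1.66 RPKM, and *CPA3*, mast cell carboxypeptidase, at 17.8, 8.56, 14.7 and 7.65 RPKM against 6.24 RPKM. Neutrophil markers had 1 of 4 above, *CAMP*, and a sum of 8.65 to 50.1 RPKM and 48.6 RPKM. The 8 B and plasma cell markers found were all below the filter, with sums of 0.531 to 1.12 RPKM and 1.40 RPKM, and their defining markers *MS4A1* and *TNFRSF17* were at 0 in the hyperinsulinemic monkey. Erythroid markers summed to 4.86 to 24.4 RPKM and 28.9 RPKM, with 1 of 4 above, and the defining marker *HBA1* was listed at 0 in all 5 libraries.

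Adipocyte markers had 4 of 12 below and 0 above (median -0.38), and summed to 3955 to 8684 RPKM in the controls and 6146 RPKM in the hyperinsulinemic monkey, within the range. Endothelial markers had 1 above and 1 below of 11 (median -0.08), lymphatic endothelial markers 1 above of 4 (-0.20), smooth muscle and pericyte markers 3 above of 12 (0.24), and Schwann cell and nerve markers 3 above of 6 (0.50). Mesothelial markers had 3 above and 2 below of 8 (median 0.03), with sums of 792 to 2559 RPKM and 1659 RPKM. The 2 epithelial and lymph node follicle markers tested were within the range, and the defining marker *EPCAM* was at 0 in 4 libraries, all but control 1.

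Skeletal muscle markers had a median of -3.39 over 9 genes, of which 3 lay below, and summed to 368, 124, 249.9 and 38.6 RPKM in the controls and 37.8 RPKM in the hyperinsulinemic monkey. The high sums of control 1 and control 3 came with their *ACTA1*, and without these libraries the median was 0.78. *CKM*, muscle creatine kinase, was listed at 0 in control 4, and *MYH7*, the slow myosin, in control 2 and control 4. Without the same 2 libraries the medians were -1.54 for fatty acid synthesis, -0.53 for oxidative phosphorylation and 1.08 for macrophage markers.

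**Figure D5:**
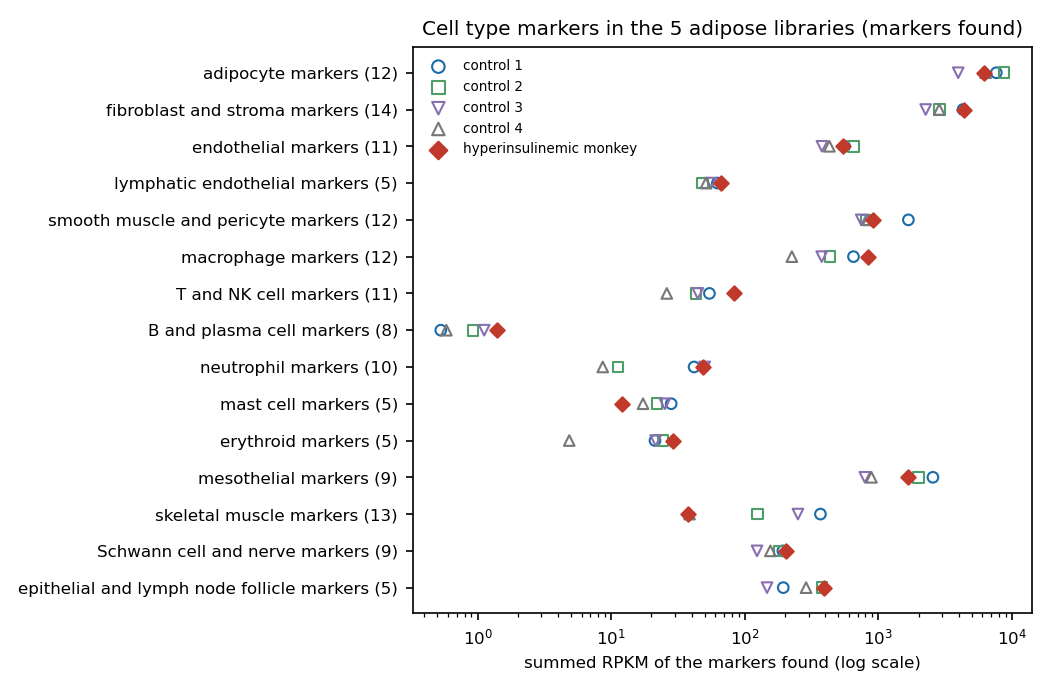
Summed RPKM (horizontal axis, log scale) of the markers of 15 cell types in the 5 adipose libraries, with the number of markers found in parentheses. Open symbols are the 4 controls and red diamonds the hyperinsulinemic monkey, whose sums include the highest for macrophages (829 RPKM) and for T and NK cells (83.2 RPKM) and the lowest for mast cells (12.1 RPKM).

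*PRKD2*, the gene mutated in the hyperinsulinemic monkey, was at 4.52, 6.12, 5.52 and 3.27 RPKM in the controls and 3.66 RPKM in the hyperinsulinemic monkey, within the control range (log2 difference -0.62, exact permutation test, two-sided, p = 0.6). After TMM scaling it was nearly level with the lowest control. In muscle it was at 1.14, 1.46, 1.21 and 1.79 RPKM in the controls and 0.387 RPKM in the hyperinsulinemic monkey. The paper reports less *PRKD2* mRNA in muscle of mutant monkeys by real-time PCR. It also reports unequal reads of the mutant and normal alleles, and less of the protein in muscle and adipose tissue. *PRKD1* was at 3.53, 4.44, 4.92 and 3.74 RPKM against 6.31 RPKM. After TMM scaling it was only just above the range, with a gap of 0.065 (log2 difference 0.394, standard error 0.452). *PRKD3* was within the range, at 2.74 to 11.5 RPKM and 7.08 RPKM. The direction of *PRKD3* turned with scaling to the mapped totals and without control 4.

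Whether the differences in adipose tissue went beyond those in muscle of the same animals was tested by an interaction term in edgeR, over the 7938 genes with enough reads in both tissues. It called 0 genes (0%), with a smallest adjusted p of 0.236, and DESeq2 called 16. At an unadjusted p under 0.05 edgeR gave 434 of the 7938 genes, near the share of 0.05 that chance alone would give. The interaction, which is the log2 difference of adipose tissue less that of muscle, was 4.73 for *FMOD* (standard error 1.19, adjusted p 0.822 from edgeR). By edgeR, no gene was thus shown to have a difference from the controls in adipose tissue that was unlike its difference in muscle.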

How the data were processed

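Strand-specific libraries of poly(A) RNA from adipose tissue were sequenced, 1 for each of 5 monkeys. The authors mapped the reads with TopHat, whose version differs between the submitters' notes and the paper, kept uniquely mapped reads, and deposited for each gene the read count and its RPKM, per the file headers the count scaled by the length of the transcript and the mapped total. This was checked and held for all values. The genome build and counting tool are not given in the sources read. Coordinates count from 1. Symbols were found for 15556 of 28595 genes.

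Genes at or above a mean of 1 RPKM were kept, and their counts scaled by TMM and tested with edgeR 4.0.16 (R 4.3.3), the hyperinsulinemic monkey against the 4 controls, and called at a Benjamini-Hochberg adjusted p under 0.05. RPKM gives levels. The range of the controls was judged on log2 CPM with a prior count of 2. The common biological coefficient of variation was 0.402. TMM factors were 0.8874 to 1.058. Each gene list is described by counts and its median. No paired analysis was possible in adipose tissue because each animal gave 1 library of it. Intervals of reads cover counting error only. The p-values of edgeR and DESeq2 rest on the spread among the control animals, as the lone hyperinsulinemic monkey adds none.

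Alternatives were DESeq2 1.42.0, limma 3.58.1 on log2(RPKM + 1) and log2(RPKM + 0.1), median-of-ratios scaling, scaling to the mapped totals, no filter, a filter at 5 RPKM, robust variance estimates, a fit of all 10 libraries, and leaving out each control or control 1 and control 3 together. The scripts were tested on simulated counts. The genes and lists were chosen with earlier results of these data known. Genes named are the 3 leading genes, PRKD2, the 15 with a symbol farthest outside the control range each way, those called by edgeR or DESeq2, and up to 3 members of each list with the smallest p. INSR, RETSAT, FABP4, ACTA1, CKM, MYH7 and markers listed at 0 were named after their values were seen. Some named genes are not reported here.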

Additional observations from a re-analysis of the deposited data

Results flagged for a closer look

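In the following genes or sums of markers 1 of the 4 controls lay far from the other three, by the ratio of its gap to the whole range of the controls against Dixon's critical value at 95%. Of 173 genes and marker sums tested 16 passed. Chance gives about 1 in 20 for independent values with a normal distribution. Whether these RPKM values have one was not tested, and many of the genes were chosen by their place against the control range. The 16 are thus not read as an excess over chance. The control apart from the rest was control 1 in 6 of them, control 2 in 5, control 4 in 4 and control 3 in 1.

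Control 1 was high for the immediate early genes FOSB (25.3 RPKM, ratio 0.962), NR4A1 (45.4 RPKM, ratio 0.954) and MYC (25.7 RPKM, ratio 0.845). It was also high for the receptors C5AR1 (ratio 0.837) and FPR1 (ratio 0.835) of leukocytes, and for the sum of smooth muscle and pericyte markers (ratio 0.901). In C5AR1 it was the control nearest to the hyperinsulinemic monkey, at 47.4 against 53.8 RPKM, whereas in FOSB and NR4A1 the hyperinsulinemic monkey was at 0.502 and 5.13 RPKM.

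Control 2 was high for PYGM (79.4 RPKM, ratio 0.947), PKD2L1 (0.293 RPKM, ratio 0.928), ETFB (147 RPKM, ratio 0.898), RPS3A (10.4 RPKM, ratio 0.890) and PLK1 (8.94 RPKM, ratio 0.845). For PLK1 the hyperinsulinemic monkey was the lowest of the 5, at 0.561 RPKM. Control 3 was high for CXCL10 (2.64 RPKM, ratio 0.877). Control 4 was high for ARNTL (3.93 RPKM, ratio 0.834) and KLB (20.3 RPKM, ratio 0.843), and low for ALAS2 (2.86 RPKM, ratio 0.838) and the sum of erythroid markers (4.86 RPKM, ratio 0.842). The causes were not tested.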

How the results depend on the processing

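With 1 library on the hyperinsulinemic side, the genes called depended on the tool and on the controls kept. With every control kept, edgeR called 0 genes in adipose tissue under 6 other settings and limma 0 with either pseudocount, and DESeq2 called 11. With 1 control fewer there were 0 to 6 calls, and 6 came without control 1 (ADH1B, AKR1B10, ADCY10, CRYAB and 2 genes with no symbol), and leaving out control 1 and control 3 together gave 33. For the interaction, the adipose difference less that of muscle, DESeq2 called 16 genes and all other settings 0. The replicate block by animal was among these settings. It had 400 genes at an unadjusted p under 0.05, near the share of 0.05 that chance would give.

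Genes above the control range numbered 3071 with no filter, 1173 with a filter at 5 RPKM, 3345 with mapped totals or limma with either pseudocount, 2355 to 3266 leaving out a control, the most without control 2, and 3013 without control 1 and control 3. Genes below it numbered 1063 with the filter at 5 RPKM, 938 with mapped totals, 934 and 935 with limma and its smaller pseudocount, 2053 to 3348 leaving out a control, the most without control 2, and 2931 without control 1 and control 3. Fewer controls give a narrower range by construction.

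Of 1998 values of 160 single genes 1972 stayed on their side of the threshold in the same direction, 21 newly passed and 5 reversed. MYC became 0.0188 without control 1 and control 3. PRKD3 became 0.0227 with mapped totals, 0.146 and 0.191 with limma and its smaller pseudocount, and ranged from -0.412 to 0.187 with 1 control fewer, highest without control 4. Of 598 list medians 539 stayed within 1 SD of the main value and 59 moved. Low genes such as BPIFC, with 2 reads in the hyperinsulinemic monkey, are limited by depth.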
